A study of Mus musculus with 12 samples.

Results

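The genes described here are 10 myeloid-lineage genes, *Cebpa*, *Cebpb*, *Cebpd*, *Spi1*, *Csf1r*, *Csf2rb*, *Csf3r*, *Mpo*, *Itgam* and *Cd14*, taken by symbol from the 41444 genes of an RNA-seq table of mouse B cell acute lymphoblastic leukemia (B-ALL) cells. All 10 symbols were matched to 1 identifier each. The cells were bone marrow pre-B cells of *Ctnnb1* fl/fl mice, which carry β-catenin alleles that Cre can excise, grown in IL7, transformed with a *BCR*–*ABL1* retrovirus and then kept without IL7. Control cells (ERT2, 3 libraries) carried the ERT2 vector without Cre and received the tamoxifen metabolite 4-OHT at 1 µM for 2 days, so that β-catenin stayed intact. Treated cells (ERT2_Ly, 3 libraries) carried the same vector, received the same 4-OHT and were given 40 nM LY2090314, a small-molecule inhibitor of the β-catenin kinase GSK3β, for 1 day by the labels, whereas the study's legend gives a shorter exposure. The study describes the libraries of a group as coming from separate mice, while the labels name no animals, so p-values cover the spread between these libraries, which may in part be technical.

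Myeloid cells and B cells arise from common progenitors, and the choice between them is set by transcription factors at different doses. PU.1, the protein of *Spi1*, serves both lineages and acts at a high level in macrophages and granulocytes, whereas the C/EBP factors drive granulocyte and monocyte genes and can turn B-lineage cells into macrophage-like cells when they are forced on. Downstream of them lie the receptors for the colony-stimulating factors, through which myeloid progenitors survive and divide, and the granule, adhesion and pattern recognition genes of mature phagocytes. The comparison asks whether any of these genes was expressed in the leukemia cells and whether its level moved when GSK3β was inhibited.

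Values are regularized log2 (rlog) values, in which the authors scaled read counts for library size and pulled thinly covered genes to their own average, so that differences of low genes are understated. The table used here gives no read counts, and the depth of each library is therefore unknown. The SD of the difference between libraries across genes was 0.185 to 0.239 within the control group, 0.186 to 0.253 within the treated group and at least 0.581 between the groups. Treated libraries A and B share a number in their names, and treated library C has another. All 12 B-lineage markers, among them *Cd79a* and *Ebf1*, were above the limit used for testing, and the cells were thus B-lineage cells by their transcripts as labelled. Of 8 T cell and 6 NK cell markers 1 each passed it, and of 8 erythroid and megakaryocyte markers 0 did.

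Among the 10 myeloid genes only *Csf2rb* and *Spi1* were expressed above the limit, a mean rlog value of at least 3 over the 6 libraries, which 11536 genes passed. The other 8 lay under it, 7 of them at mean values between −1.96 and 1.41 and *Mpo* listed at exactly 0 in all 6 libraries, as were 21786 genes in all (52.6%). Since 5306 genes had means below 0, down to −2.28, this exact 0 is not a level to rank against other genes. *Csf2rb* rose with LY2090314 and *Spi1* did not pass the threshold, a Benjamini-Hochberg adjusted p of 0.05 in limma over all genes tested. Thus 1 of 10 genes was called, in a comparison that called 50.1% of the genes tested, 24.8% higher and 25.3% lower. Per kb of annotated exon, *Csf2rb* and *Spi1* had control levels of 8.55 and 8.25 on the log2 scale, whereas the highest of the other genes, *Cebpb*, was at −0.24. In bulk samples, fewer cells of a type and less RNA per cell cannot be told apart.

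**Figure D1:**
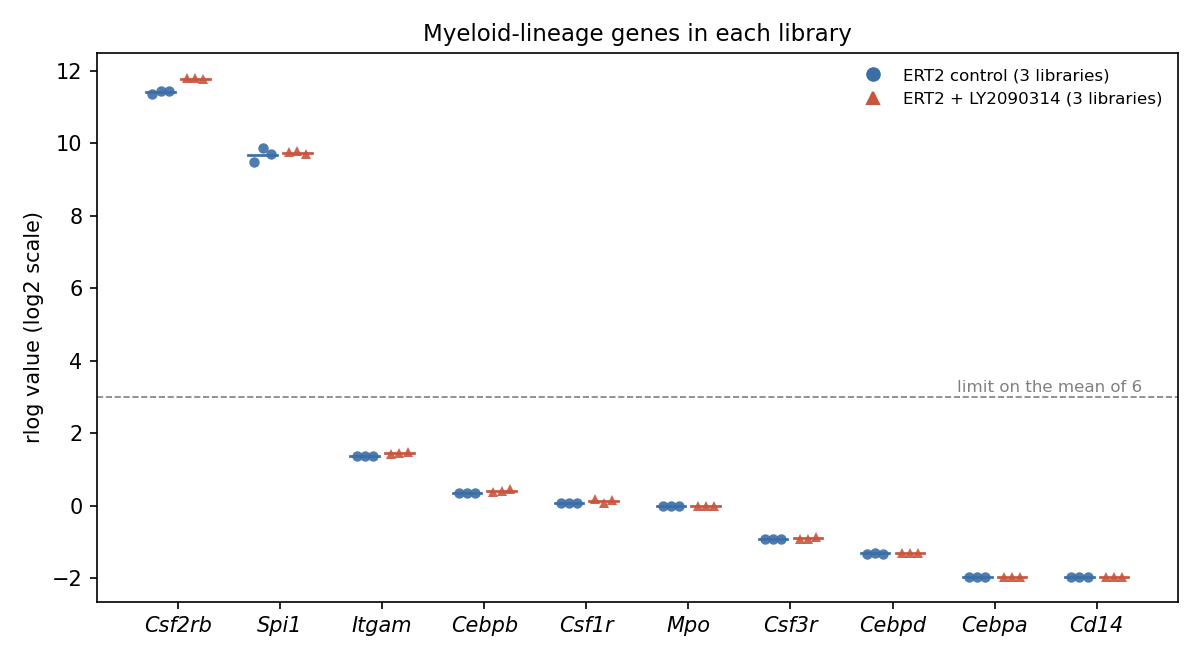
The rlog value (log2 scale) of each of the 10 genes in each library, ordered by control mean, with circles for the 3 ERT2 control libraries, triangles for the 3 libraries with LY2090314 and short lines for group means. *Csf2rb* and *Spi1* stand above the dashed limit of 3, and the other 8 genes lie at 1.47 or lower in every library. *Mpo* is drawn at its listed value of 0, which is not a level to rank against the other genes.

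*Csf2rb* encodes the common β chain of the receptors for IL-3, GM-CSF and IL-5 and lies beside a close copy, *Csf2rb2*, whose product serves the IL-3 receptor of the mouse alone. The coding sequences are shown because both genes moved and reads may be shared between them. Over 2628 aligned coding bases, 2503 were identical (95.2%), and the longest identical run was 242 bases. Of the 31-base words of *Csf2rb* transcripts 18.8% also occur in *Csf2rb2*, and 28.6% of those of *Csf2rb2* also occur in *Csf2rb*. The stretch of 120 coding bases with most differences holds 22 of the 125 differences, which are printed in capitals, 5′ to 3′ on the coding strand. For *Csf2rb* it covers coding bases 309 to 428, within chr15:78338898-78340471 on the plus strand, and for *Csf2rb2* coding bases 312 to 431, within chr15:78292838-78294433 on the minus strand (GRCm38, exons on either side of an intron).
Csf2rb: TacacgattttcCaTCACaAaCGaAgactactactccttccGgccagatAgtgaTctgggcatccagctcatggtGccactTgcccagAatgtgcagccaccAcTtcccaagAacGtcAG
Csf2rb2: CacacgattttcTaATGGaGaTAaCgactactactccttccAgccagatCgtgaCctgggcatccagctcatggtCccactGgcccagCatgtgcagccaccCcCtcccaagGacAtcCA

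Promoter windows of 300 bases, 250 before and 50 after the start, were taken from RefSeq (GRCm38.p6) for the 5 genes that could be matched there, *Cebpa*, *Cebpb*, *Csf3r*, *Itgam* and *Mpo*. Those of *Csf3r*, *Itgam* and *Mpo* are shown because they hold the PU.1 core letters GAGGAAG, searched on both strands and printed in capitals. All 5 genes lay under the limit, with or without these letters. *Csf2rb* and *Spi1*, which passed it, had no window for comparison. Of all 32851 promoter windows 13.6% hold these letters, which were chosen with the sequences in view. The match of *Csf3r* begins 86 bases before the start, those of *Itgam* 84 bases before and, on the other strand, 31 bases after it, and those of *Mpo* 247 and 224 bases before it. The letters TTGCGCAA of C/EBP, ATCAAAG of TCF/LEF and TGGGAA of Ikaros, held by 0.183%, 3.73% and 25.6% of all windows, were found in 0 of the 5, which says only that these letters are not in these windows. The windows lie at chr4:126024409-126024708, chr7:128062390-128062689 and chr11:87793534-87793833, all on the plus strand.
Csf3r: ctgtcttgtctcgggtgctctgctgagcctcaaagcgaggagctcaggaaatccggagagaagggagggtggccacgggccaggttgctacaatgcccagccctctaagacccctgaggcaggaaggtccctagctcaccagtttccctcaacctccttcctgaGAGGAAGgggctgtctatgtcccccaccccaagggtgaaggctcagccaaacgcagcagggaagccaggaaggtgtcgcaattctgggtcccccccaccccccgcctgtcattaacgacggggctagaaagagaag
Itgam: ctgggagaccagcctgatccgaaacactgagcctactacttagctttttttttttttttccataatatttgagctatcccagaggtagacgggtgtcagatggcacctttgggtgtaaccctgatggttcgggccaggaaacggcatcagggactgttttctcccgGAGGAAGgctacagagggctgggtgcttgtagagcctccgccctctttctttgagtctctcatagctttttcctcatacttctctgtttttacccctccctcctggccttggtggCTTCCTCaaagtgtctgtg
Mpo: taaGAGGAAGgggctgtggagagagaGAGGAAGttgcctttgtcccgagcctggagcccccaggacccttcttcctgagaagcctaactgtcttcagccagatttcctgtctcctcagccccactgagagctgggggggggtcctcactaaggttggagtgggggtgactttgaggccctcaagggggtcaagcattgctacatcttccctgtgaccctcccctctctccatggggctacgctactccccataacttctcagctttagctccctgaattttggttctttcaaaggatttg

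*Csf2rb* (ENSMUSG00000071713, chromosome 15, 78325752 to 78353847, plus strand of GRCm38) had rlog values of 11.36, 11.44 and 11.45 in the control libraries and 11.79, 11.80 and 11.77 in treated libraries A, B and C. Every treated library lay above every control library, and the treated libraries differed among themselves by less than the controls did. Group means were 11.42 ± 0.046 (SD, n = 3) and 11.79 ± 0.018 (SD, n = 3). The rise was 0.37 on the log2 scale, or 1.29-fold (standard error 0.045, 95% interval 0.27 to 0.47, limma adjusted p = 0.00031). Across the alternatives that were fitted the difference lay between 0.34 and 0.39 and stayed past the threshold, except under the additional requirement of a 1 log2 unit change. Groups did not overlap, as for 58.6% of the genes past the limit, and p was 0.1 in a two-sided exact permutation test, which cannot give less with 3 against 3 libraries. *Csf2rb* overlaps the microRNA gene *Mir7676-2* on the same strand.

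The copy *Csf2rb2* also rose, with a larger log2 difference than *Csf2rb*. Its rlog values were 9.37, 9.29 and 9.46 without and 10.13, 10.12 and 10.11 with LY2090314, a rise of 0.75 (standard error 0.058, limma adjusted p = 3.0e-05). Per kb of exon the gap between *Csf2rb2* and *Csf2rb* went from −1.42 to −1.05 on the log2 scale, a change of 0.37 with no overlap between the groups (exact permutation test, p = 0.1). Because of the shared sequence, the split of reads between both copies is uncertain. With the linear values of both copies summed, an alternative chosen after seeing the data, the rise was 0.45 (95% interval 0.35 to 0.55, limma adjusted p = 0.00010).

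Of 7 other receptor chains for myeloid growth factors, 5 passed the limit, 3 rose and none fell, with a median difference of 0.75 against 0.012 over all genes tested. Besides *Csf2rb2* these were *Flt3*, the receptor for FLT3 ligand on early progenitors, with values of 4.25, 4.22 and 4.31 against 5.23, 5.56 and 5.37, and *Il6ra*, the ligand-binding chain of the IL-6 receptor, with a rise of 0.57 (standard error 0.10, limma adjusted p = 0.0027). The rise of *Flt3* was 1.13 (standard error 0.10, limma adjusted p = 6.9e-05). The α chains that join *Csf2rb* gave no call. *Il3ra*, for IL-3, differed by −0.14 (95% interval −0.48 to 0.19), and *Csf2ra*, for GM-CSF, lay under the limit at 2.63 and 2.64. *Il5ra*, for IL-5, had 3.20, 3.25 and 3.20 in control libraries but 5.67, 5.01 and 3.26 in treated ones, so that A and B were high and C was at the control level. Its difference of 1.43 missed the threshold (limma adjusted p = 0.052), and without treated C it was 2.12 and passed it. *Kit*, the stem cell factor receptor, lay under the limit, at 1.79, 1.80 and 1.79 in control and 2.09, 2.25 and 2.23 in treated libraries. With no limit on the mean its difference of 0.39 was called (limma adjusted p = 0.0041), so that 4 of the 7 chains were higher. With a limit of 5, 2 chains were tested, 1 was called and the median was 0.30.

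Of 6 ligands for the receptors that *Csf1r*, *Csf2rb* and *Csf3r* encode or take part in, 5 lay under the limit. *Csf2* and *Il3*, the genes for GM-CSF and IL-3, were listed at 0. Ligands for the products of *Flt3*, *Il6ra* and *Kit* were not in this list. *Csf1*, the growth factor for macrophages that binds the product of *Csf1r*, had values of 6.71 to 6.999 in control and 5.95, 6.07 and 6.72 in treated libraries. It fell by 0.62 (standard error 0.20, limma adjusted p = 0.032), with treated C inside the control range. The call was lost without control 1, control 2, treated A or treated B, at differences between −0.61 and −0.47. It was also lost with no limit on the mean and with treated A and B counted as 1 sample.

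*Spi1* (ENSMUSG00000002111, chromosome 2, 91082390 to 91115756, plus strand) had rlog values of 9.49, 9.86 and 9.70 in control and 9.75, 9.78 and 9.70 in treated libraries. Controls spread more widely than treated libraries and enclosed all of them. The means of 9.68 ± 0.19 (SD, n = 3) and 9.74 ± 0.040 (SD, n = 3) differed by 0.057 (standard error 0.092, 95% interval −0.16 to 0.27, limma adjusted p = 0.63). The interval of the difference thus spans falls and rises. Over the alternatives the difference lay between −0.04 and 0.15 and was never called.

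*Spib*, which encodes the close PU.1 relative Spi-B of B cells and plasmacytoid dendritic cells, moved while *Spi1* gave no call. It was at 11.06, 11.10 and 11.20 in control and 9.61, 9.68 and 9.79 in treated libraries, a difference of −1.43 (standard error 0.065, limma adjusted p = 1.8e-06). Per kb of exon, the gap of *Spi1* to *Spib* went from −1.35 to 0.14, so that *Spi1* lay below *Spib* without the inhibitor and near it with the inhibitor. This gap changed by 1.48 and did not overlap between groups (exact permutation test, p = 0.1).

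Among 15 other transcription factor genes of myeloid cells, 7 passed the limit, 2 rose and 4 fell, with a median difference of −0.49. *Id2*, an inhibitor of E proteins, rose from 5.80 ± 0.14 to 7.30 ± 0.082 (SD, n = 3 each) and *Runx1*, a factor of blood stem cells and several lineages, from 11.88 ± 0.048 to 12.93 ± 0.096 (SD, n = 3 each). Besides *Spib*, *Zeb2*, a repressor active in monocytes and dendritic cells, *Irf8*, a factor of monocytes, dendritic cells and B cells, and the immediate early gene *Egr1* fell, with differences of −1.07, −0.49 and −0.49. *Klf4*, a monocyte factor, differed by 0.30 (95% interval 0.02 to 0.57, limma adjusted p = 0.069) and passed the threshold without control 2, at 0.38, or treated A, at 0.39. *Gfi1*, *Nfe2*, *Maf*, *Egr2*, *Spic* and *Batf3* lay under the limit, and *Gata2* was listed at 0.

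None of the 3 C/EBP genes among the 10 passed the limit. *Cebpb* (ENSMUSG00000056501, chromosome 2, 167688915 to 167690418, plus strand), which encodes a C/EBP factor of macrophage activation, was at 0.35 in each of the 3 control libraries and at 0.38, 0.40 and 0.47 in treated libraries. Every treated library was higher, by a mean of 0.068 on a scale on which low genes are shrunken. In the fit with no limit on the mean, which tested 19658 genes and called 27.2% of them, its limma adjusted p was 0.096. *Cebpd* (ENSMUSG00000071637, chromosome 16, 15887286 to 15891031, plus strand), an acute phase factor, had −1.32, −1.29 and −1.32 in control and −1.29, −1.32 and −1.31 in treated libraries, and the groups overlapped.

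*Cebpa* (ENSMUSG00000034957, chromosome 7, 35119293 to 35121928, plus strand), the factor that granulocyte and monocyte progenitors need, was at −1.96 in all 6 libraries, with a span of 0.0012. Its 6 values were thus nearly constant. In all, 1523 genes (7.75% of the 19658 not listed at 0) had spans of at most 0.002, and all 1523 ranked the 6 libraries in the same order as *Cebpa*. No change in *Cebpa* could be read from values of this kind. *Cebpa*, *Cebpb* and *Cebpd* each overlap a gene on the other strand, and the libraries were strand-specific.

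Of 4 further genes listed with the C/EBP genes, 3 passed the limit, 2 fell and none rose, with a median of −0.19. *Cebpz* (10.92 ± 0.071 to 10.51 ± 0.036, SD, n = 3 each), which shares the name but whose product works in ribosome assembly, fell by 0.40. *Cebpg*, a partner without a strong activation domain of its own, fell by 0.19 (limma adjusted p = 0.041). That call was lost without control 1, control 2, treated A or treated C, at differences between −0.18 and −0.14. It was also lost with no limit on the mean, with no mean-variance trend, and with treated A and B counted as 1 sample. *Ddit3*, a stress-induced partner also known as CHOP, differed by 0.18 without a call (95% interval −0.07 to 0.43), and the granulocyte factor *Cebpe* was flat at −2.28.

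The receptors for the lineage-specific colony-stimulating factors lay under the limit. *Csf1r* (ENSMUSG00000024621, chromosome 18, 61100598 to 61132149, plus strand), the M-CSF receptor of macrophages, was at 0.071, 0.072 and 0.071 in control and at 0.18, 0.071 and 0.16 in treated libraries. Treated A and C were above the controls and treated B was among them, and the limma adjusted p with no limit was 0.17. *Csf3r* (ENSMUSG00000028859, chromosome 4, 126024550 to 126044440, plus strand), the G-CSF receptor of neutrophils, was at −0.92 in all 3 control libraries and in treated A and B, and at −0.86 in treated C. Of the 31-base words of its transcripts 19.9% also occur in *AC105061.2*, whose level was not analysed here.

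The 3 genes of mature phagocytes among the 10 also lay under the limit. *Itgam* (ENSMUSG00000030786, chromosome 7, 128062640 to 128118491, plus strand) encodes CD11b, the α chain of the Mac-1 integrin. It had 1.37, 1.38 and 1.37 in control and 1.44, 1.45 and 1.47 in treated libraries. All treated libraries were higher, by a mean of 0.081, but the gene missed the threshold with no limit on the mean (limma adjusted p = 0.063). It shares 67.2% of its 31-base words with *Gm49368*, which overlaps it on the same strand and was not analysed here, so its level is uncertain. *Cd14* (ENSMUSG00000051439, chromosome 18, 36725067 to 36726798, minus strand), the lipopolysaccharide (LPS) co-receptor of monocytes, was at −1.96 in all 6 libraries with a span of 0.0015 and the library order of *Cebpa*. *Mpo* (ENSMUSG00000009350, chromosome 11, 87793581 to 87804413, plus strand), the myeloperoxidase of neutrophil granules, was listed at 0 in every library.

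Over the 9 genes not listed at 0, 3 (*Csf2rb*, *Cebpb* and *Itgam*) had every treated library above every control library and 0 the reverse. *Cebpb* and *Itgam* lay under the limit. Their control values spanned only 0.0014 and 0.011, so little can be read from their separation. Among the 19658 genes not listed at 0, 41.7% had groups that did not overlap, and 23.0% had every treated library higher. With no limit on the mean, 9 of the 10 genes were tested and 1, *Csf2rb*, was called.

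**Figure D2:**
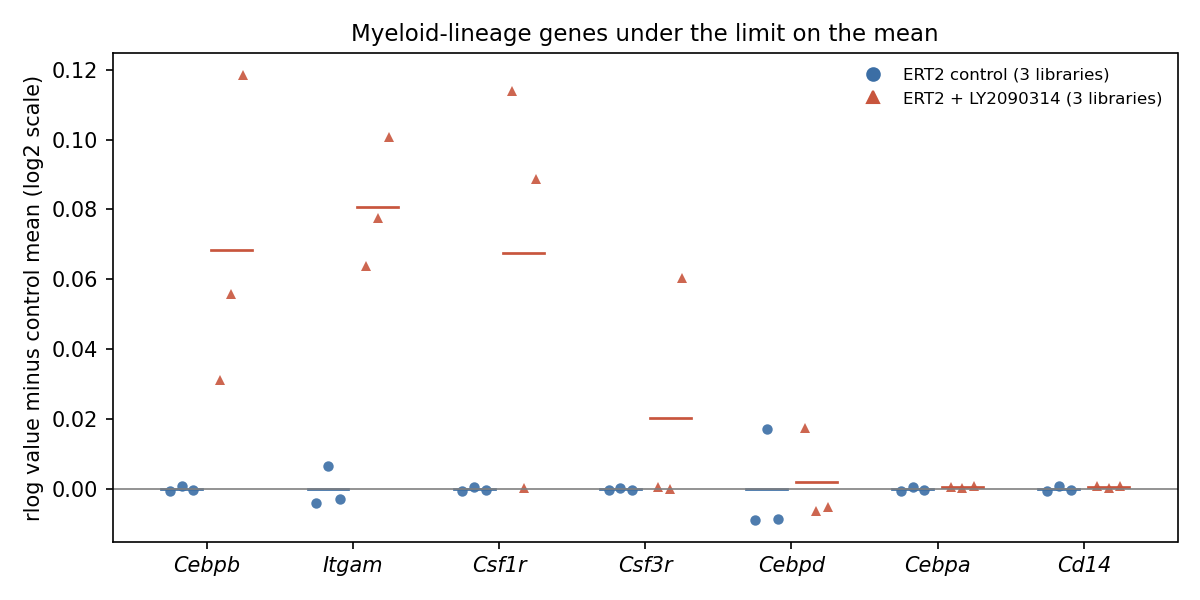
The rlog value minus the control mean of the gene (log2 scale) in each library for the 7 genes under the limit that were not listed at 0, with circles for the 3 ERT2 control libraries, triangles for the 3 libraries with LY2090314 and short lines for group means. All treated triangles of *Cebpb* and *Itgam* lie above the controls, *Csf1r* has 2 of 3 above them, and *Cebpa* and *Cd14* are flat.

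*Itgb2*, the β2 chain that pairs with CD11b, rose from 9.88 ± 0.033 to 10.55 ± 0.035 (SD, n = 3 each), by 0.67 (standard error 0.047, limma adjusted p = 1.7e-05). *Itgal*, whose product CD11a pairs with the same β2 chain on lymphocytes, rose from 9.79 ± 0.023 to 10.37 ± 0.12 (SD, n = 3 each), by 0.58 (limma adjusted p = 0.00024). *Itgax*, for CD11c, had means of −1.96 in both groups, and *Itgad* was listed at 0. Of 4 β2 integrin genes beside *Itgam*, 2 thus passed the limit and both rose.

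Of 6 pattern recognition genes listed beside *Cd14*, 5 passed the limit, 1 rose and 1 fell, with a median of −0.09. *Tlr2*, a receptor for bacterial lipoproteins rather than LPS, rose from 6.71 ± 0.052 to 7.42 ± 0.20 (SD, n = 3 each), by 0.71 (limma adjusted p = 0.0013). *Tlr4*, the signalling receptor for LPS, was at 8.14, 8.10 and 8.17 against 8.05, 8.09 and 7.999 and gave no call (95% interval −0.25 to 0.07). Its partner *Ly96*, for MD-2, differed by 0.26 without a call and passed the threshold without control 1, at 0.33, and with no mean-variance trend. The adaptor *Myd88* differed by −0.15 (95% interval −0.29 to −0.01, limma adjusted p = 0.076) and passed the threshold with quantile normalization, at −0.18. The adaptor *Ticam2* fell by 0.21 (limma adjusted p = 0.024). The call of *Ticam2* was lost without control 1, control 2, treated A or treated B, at −0.22 to −0.18, and with treated A and B counted as 1 sample. Part of the sequence of *Ticam2* is shared with *Tmed7*.

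Granule genes resembled *Mpo*. Of 14 such genes beside *Mpo*, 9 were listed at 0, among them the elastase gene *Elane* and the calprotectin genes *S100a8* and *S100a9*, and 4 lay under the limit with group means between −0.96 and 0.21. The exception was *Lyz2*, for lysozyme, at 5.68, 5.91 and 5.82 against 6.41, 6.29 and 6.31, a rise of 0.53 (standard error 0.095, limma adjusted p = 0.0023). It shares 32.8% of its 31-base words with *Lyz1*, which was at −1.49 and −1.46.

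Of 18 surface and signalling genes of phagocytes, 9 passed the limit, 5 rose and 3 fell, with a median of 1.35. This direction rests on genes with low control values, since with a limit of 5 the 5 genes left had a median of −0.57, with 2 higher and 3 lower. With no limit 6 were called higher and 2 lower, among them the chemokine receptor gene *Cx3cr1* with a difference of 0.25 (limma adjusted p = 0.024). *Ly6g*, the neutrophil surface marker, was at 3.46, 3.53 and 3.47 in control and 6.42, 6.41 and 6.51 in treated libraries, a rise of 2.96 (standard error 0.080, limma adjusted p = 1.3e-07). *Ccr2*, the chemokine receptor of inflammatory monocytes, was at 7.11, 7.18 and 6.92 against 9.90, 9.93 and 10.02, a rise of 2.88 (standard error 0.086, limma adjusted p = 2.1e-07). *Ly6c2*, a marker of the same monocytes that lymphocytes also carry, was at 3.10, 3.31 and 3.11 against 5.19, 5.11 and 5.30, a rise of 2.03 (standard error 0.096). In all 3 genes every treated library lay above every control. Of its 31-base words, *Ly6g* shares 9.55% with other genes, most with *Ly6i* (4.39%), whose level was not analysed here. *Ly6c2* shares 23.7% with other genes, most with *Ly6c1* (14.6%). *Ly6c1* was at −1.37 and −1.36.

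The Fc receptor genes *Fcer1g* and *Fcgr3* also rose. *Fcer1g*, the shared signalling γ chain, was at 3.15, 3.19 and 3.12 against 4.71, 4.996 and 4.53, and *Fcgr3*, an activating IgG receptor, went from 4.78 ± 0.19 to 6.12 ± 0.20 (SD, n = 3 each). *Fcgr3* shares 13.4% of its 31-base words with the inhibitory receptor gene *Fcgr2b* of B cells, which itself rose by 0.93. The falls were in *Sirpa*, a receptor for CD47 (6.83 ± 0.081 to 4.92 ± 0.30, SD, n = 3 each, −1.91), *Mrc1*, the macrophage mannose receptor (5.91 ± 0.056 to 4.92 ± 0.014, SD, n = 3 each, −0.99), and *Cd36*, a scavenger receptor (−0.57, limma adjusted p = 0.048). The call of *Cd36* was lost without control 2, control 3, treated A or treated B, at −0.56 to −0.43. It was also lost with no limit on the mean, with no mean-variance trend, and with treated A and B counted as 1 sample. *Cd68*, a macrophage lysosomal gene, differed by 0.017, with means of 3.60 and 3.62. Elsewhere in this list, *Adgre1*, *Cd163* and *Mertk* were listed at 0, and *Fcgr1* and *Tyrobp* lay at −0.75 and −0.97 in controls. The macrophage genes *Mrc1* and *Cd68* passed the limit, as did *Sirpa* and *Cd36*, so macrophage genes of the list lay on both sides of it.

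**Figure D3:**
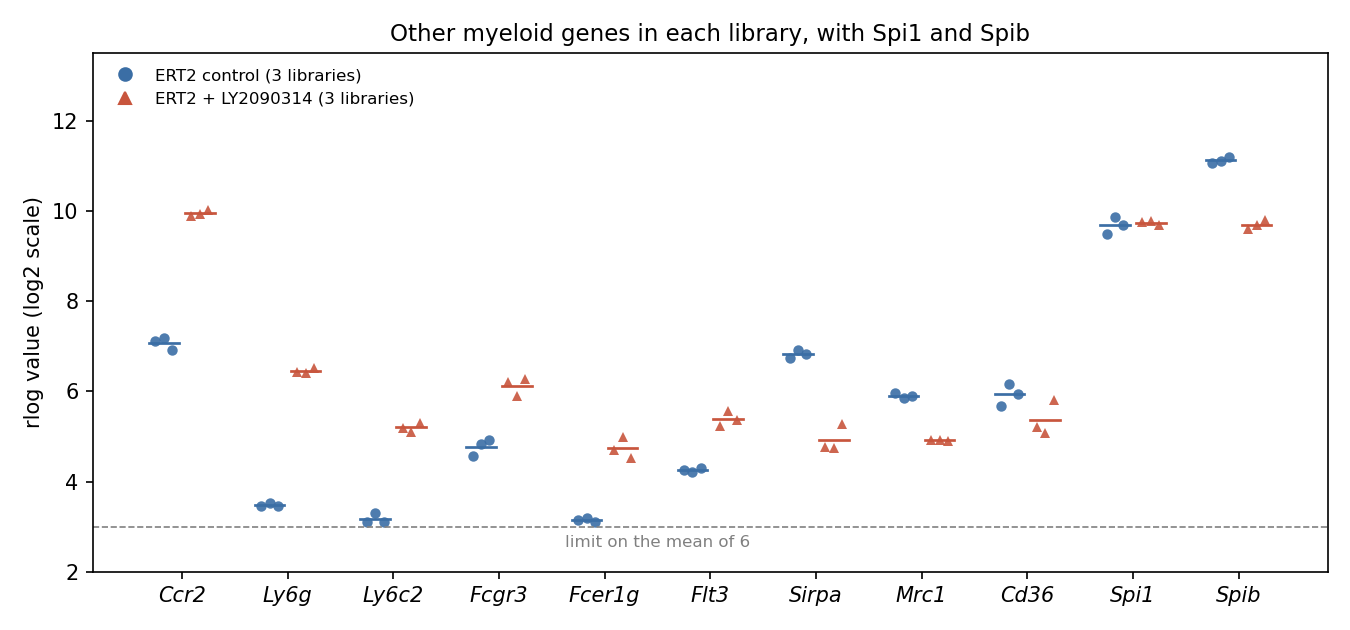
The rlog value (log2 scale) in each library of 9 other myeloid genes that were called, with *Spi1* and *Spib*, circles for the 3 ERT2 control libraries, triangles for the 3 libraries with LY2090314 and short lines for group means. *Ccr2*, *Ly6g* and *Ly6c2* rose by 2.03 or more, whereas the points of *Spi1* overlap and those of *Spib* are apart.

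All 6 NADPH oxidase genes, which phagocytes and B cells both use to make superoxide, passed the limit, and 3 rose and 1 fell, with a median of 0.13 (0.038 over 5 genes with a limit of 5). *Cyba* (0.47), *Ncf1* (0.28) and *Rac2* (0.23) rose, and *Ncf4* fell by 0.23, all with limma adjusted p between 0.014 and 0.027. Leaving out 1 library ended that of *Cyba* without control 2 (0.43), of *Rac2* without control 1 (0.21) or control 2 (0.23), of *Ncf1* without control 1, control 3, treated A or treated B (0.23 to 0.27), and of *Ncf4* without control 2, control 3 or treated A (−0.22 to −0.17). The calls of *Cyba* and *Ncf4* were also lost with no limit on the mean. That of *Ncf1* was lost with quantile normalization, at 0.17, and with treated A and B counted as 1 sample, at 0.25. *Cybb* differed by −0.15 without a call and passed the threshold without treated C, at −0.26.

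Over the 9 lists together, 39 of 80 genes passed the limit, 17 rose and 12 fell, so that 29 of 39 were called where 50.1% of all genes tested were. The median difference was 0.23, and with a limit of 5 it was −0.09 over 31 genes. Of the 41 that did not pass, 20 were listed at 0. The rlog values draw low genes to their mean over libraries, and a gene can therefore pass the limit through the group in which it is high, as may hold for *Ly6g*, *Ly6c2*, *Fcer1g* and *Il5ra*, whose control values lay between 3.10 and 3.53. The counts are thus a description of the genes that passed and not of the lists.

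**Figure D4:**
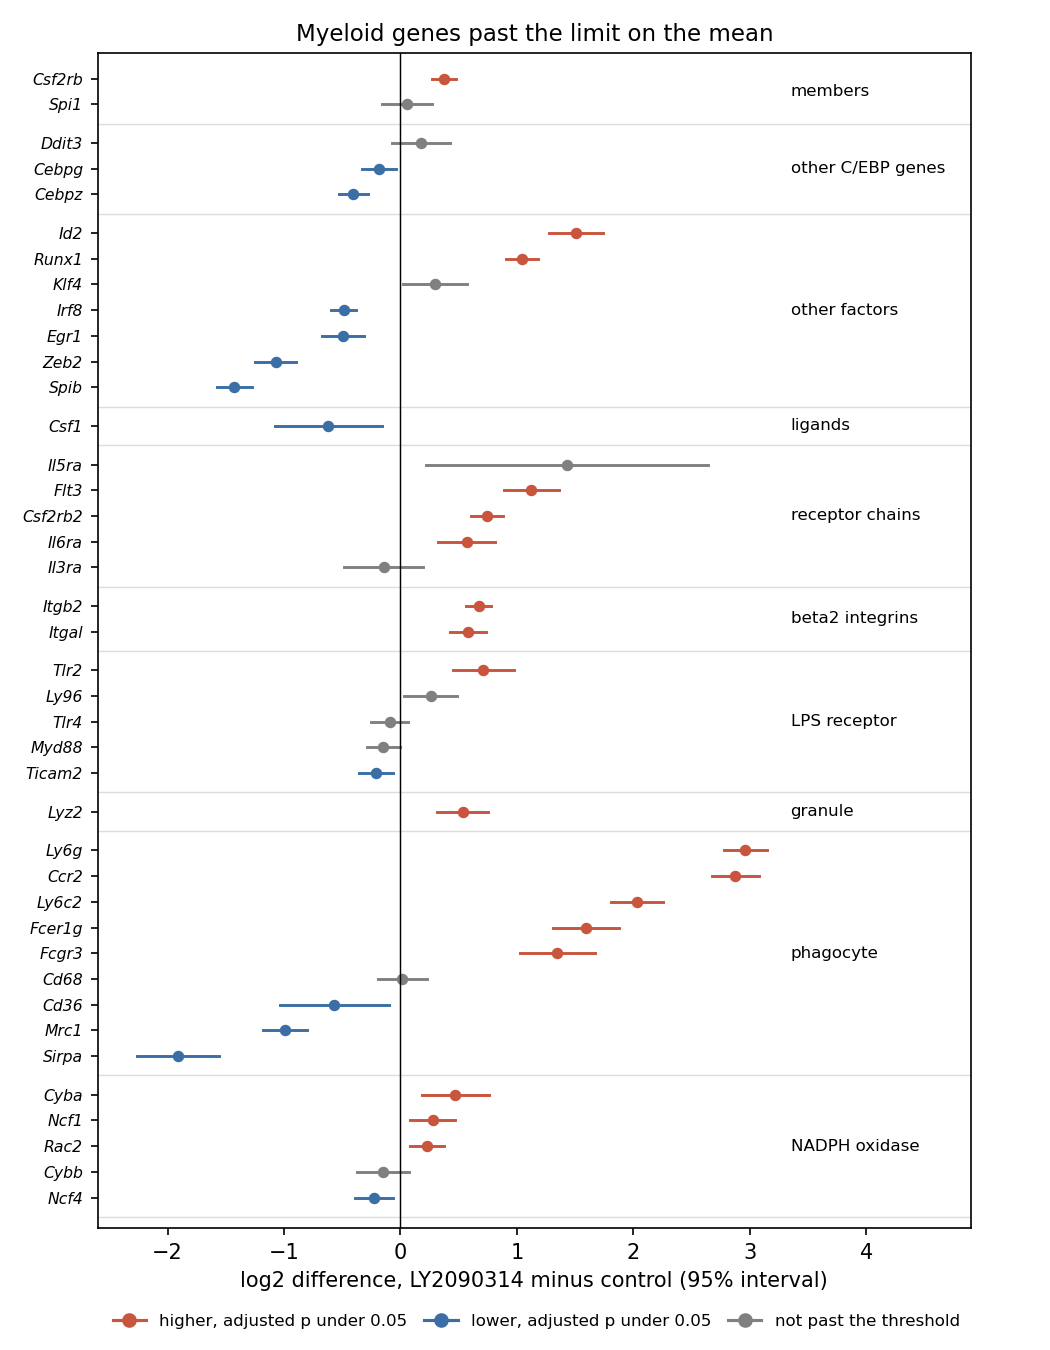
The log2 difference (LY2090314 minus control) of 40 of the 41 myeloid genes past the limit with its 95% interval from limma, grouped by list, in red where the gene was called higher, in blue where called lower and in grey where not called. *Csf2rb* lies at 0.37 and the interval of *Spi1* includes 0, and the differences of the other genes run from −1.91 (*Sirpa*) to 2.96 (*Ly6g*).

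B-lineage genes moved beside these. Of the 12 markers 9 fell and 1 rose, with a median of −0.69. *Rag1*, a recombinase gene, fell by 1.93, *Pax5*, the factor that keeps B cell identity, went from 14.05 ± 0.17 to 12.51 ± 0.12 (SD, n = 3 each, −1.54), and the surrogate light chain genes *Igll1* and *Vpreb1* changed by −1.42 and −1.27. *Ebf1*, an early B cell factor, fell by 0.40. *Il7r*, the IL7 receptor chain, rose by 0.35. *Cd79a* differed by 0.23 without a call. It passed the threshold without treated C, at 0.14, with quantile normalization, at 0.18, and with a limit of 5 on the mean. The summed level of the 12 markers was 16.82 to 16.84 in control and 16.39 to 16.53 in treated libraries.

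The summed level of the 14 granule genes was 5.76 to 5.98 in control and 6.34 to 6.46 in treated libraries, and that of the 18 phagocyte genes 8.74 to 8.88 and 10.33 to 10.46, over the genes not listed at 0. Linear sums weigh the highest genes most. The granule sum lay close to *Lyz2* alone, with means of 5.80 and 6.34. Among phagocyte genes *Ccr2* was the highest in both groups, with means of 7.07 and 9.95, so neither sum describes its whole list. For T cell markers these sums were 11.36 to 11.47 and 12.27 to 12.51, which came from *Lck* (a rise of 0.95), with the CD3 genes between −2.28 and −1.13. For NK cell markers they were 4.52 to 4.66 and 5.44 to 5.56, with *Klrd1* up by 1.21 and *Ncr1* listed at 0. For erythroid and megakaryocyte markers they were 3.87 to 3.94 and 3.83 to 3.85. Whether other cells in the cultures have a part in the rise of *Csf2rb* was not tested. In control libraries *Mpo*, *Elane* and *Adgre1* were listed at 0, whereas the phagocyte and granule genes *Ccr2*, *Mrc1* and *Lyz2* were at means of 7.07, 5.91 and 5.80.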

How the data were processed

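RNA-seq libraries of polyadenylated RNA were strand-specific and paired-end. The authors quantified transcripts with Salmon and STAR on GRCm38 and deposited log2 values named as rlog values, the transformation of DESeq2 (version 1.30.1 in the submitters' processing notes), for 41444 genes in 12 columns. Of these, 6 were matched by name to 3 ERT2 and 3 ERT2_Ly samples. The other 6 combine Cre and LY in 2 spellings and were not used. Without counts, no count test was possible.

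Treated and control libraries were compared in R 4.3.3 by limma 3.58.1 (eBayes with trend) over genes with a mean of at least 3, and p-values were Benjamini-Hochberg adjusted at a threshold of 0.05. The fit was tested on simulated data. Symbols, positions and exon lengths came from GENCODE on GRCm38 (an earlier release than that of the authors), and shared sequence was counted in words of 31 bases of its transcripts. Summed levels are log2 of summed linear values. The alternatives were no limit on the mean, a limit of 5, no trend, median centring, quantile normalization, a threshold of 0.01, an additional log2 difference of 1, each library left out, and treated A and B counted as 1 sample.

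The members and lists were chosen with earlier results of these data known. Named genes were the 10 members, every gene past the limit in the lists of ligands, receptor chains, C/EBP genes, β2 integrins and LPS recognition, the 4 largest called differences of each other list, and *Cd79a*, *Ebf1* and *Pax5*. Some genes of the lists are not reported here. Other genes, among them *Irf8*, *Egr1*, *Klf4*, *Fcer1g*, *Fcgr3*, *Mrc1*, *Cd36*, *Cd68*, *Cx3cr1*, *Kit*, *Cybb* and *Il7r*, were named after their values were seen.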

Additional observations from a re-analysis of the deposited data

How the results depend on the processing

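The number of genes called was 5778 of 11536 and fell to 693 (478 higher and 215 lower) under the additional requirement of a 1 log2 unit change, which by construction removed *Csf2rb* and left 0 of the 10 myeloid genes called. Leaving out 1 library at a time gave 4741 to 6225 called genes and 1 called myeloid gene each time, *Csf2rb*. For 55 genes the alternatives other than the added 1 log2 unit and the threshold of 0.01 were each compared with the reported fit, and 40 stayed on the same side of the threshold in all of those in which they were tested and 15 did not. Over 652 combinations of gene and alternative, 595 were unchanged in this sense, 47 lost a call, 10 gained one and 0 turned the direction of a called gene, while the uncalled difference of *Spi1* took either sign. The cause of these changes was not tested. No paired analysis was possible because no replicate number of the titles can be read from the columns. Depth is unknown, so no lower limit of detection can be given for *Mpo*, *Cebpa* or *Cd14*, and with 3 libraries a group no exact test can go below 0.1.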
